A study of Mus musculus with 2 samples.

Results

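The microRNA miR-21 was measured through both arms of its hairpin, mmu-miR-21-5p and mmu-miR-21-3p (here miR-21-5p and miR-21-3p), in myeloid-derived suppressor cells grown from mouse bone marrow. The members were the rows whose deposited name equalled either arm, which gave 2 of the 1080 miRNA names on the array. Both were present and detected on both arrays, among 292 names detected on both. Bone marrow of C57BL/6 mice was kept for 4 days in medium with 5% serum. One culture (GM-CSF plus IL-6, here the IL-6 culture) received GM-CSF at 40 ng/ml, which drives growth of myeloid cells, together with IL-6 at 40 ng/ml, an inflammatory cytokine. The other received 40 ng/ml GM-CSF only. Each culture has 1 array, so no difference between the cultures has a replicate check and no test was made. The labels do not say how many animals gave marrow to each culture. RNA came from the whole culture, so a change in the make-up of the cells and a change in miRNA per cell cannot be told apart.

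A miRNA is cut from a hairpin, and either arm can enter an Argonaute protein, where bases 2 to 8, the seed, pair with target mRNAs. In most tissues the 5p arm of miR-21 is the abundant guide strand and the 3p arm is the passenger that is largely degraded. IL-6 signals through its receptor to the transcription factor STAT3, which binds upstream of the human miR-21 gene and raises its transcription in several human cell types. A known target of miR-21-5p is Pdcd4, an inhibitor of translation. In myeloid-derived suppressor cells miR-21 has been reported to favour expansion of the cells. The comparison asks how adding IL-6 altered the level of each arm.

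The sequences of both arms and of their hairpin are shown because the arms share a precursor but no seed. The array's name miR-21 is a synonym of Mir21a in RefSeq, and both arms were matched to its miR-21a entries (GRCm38.p6). The hairpin lies at chr11:86584067-86584158 on the minus strand, within the span of the protein-coding gene Vmp1. Whether that stretch of Vmp1 is exonic or intronic was not examined. The 5p arm lies at chr11:86584120-86584141 and the 3p arm at chr11:86584082-86584103. Capitals mark the seed in the arms and the positions of the arms in the hairpin.
miR-21a-5p: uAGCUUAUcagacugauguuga
miR-21a-3p: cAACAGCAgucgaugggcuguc
Mir21a hairpin: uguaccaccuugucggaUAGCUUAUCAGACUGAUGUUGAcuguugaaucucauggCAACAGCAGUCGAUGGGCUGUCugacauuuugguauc
In the hairpin of 92 bases the 5p arm fills positions 18 to 39 and the 3p arm positions 56 to 77, with 16 bases between them. Both arms are 22 bases long, and 8 bases of the 5p arm (36.4%) and 13 of the 3p arm (59.1%) are G or C.

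Among 1679 mature mouse miRNA names in the RefSeq table, 1 other carried the 5p seed, miR-21c, and 0 others carried the 3p seed. A further relative by name, miR-21b, differs within the seed. Both are shown because they resemble miR-21-5p in sequence. Neither miR-21b (chr3:29636768-29636790, plus strand) nor miR-21c (chr8:128278188-128278208, minus strand) is measured under its own name here, and signal from them was not separated from that of miR-21-5p.
miR-21c: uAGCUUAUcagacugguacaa
miR-21b: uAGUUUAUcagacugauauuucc
Counted from 1 at the 5′ end, with the base of miR-21a-5p first, miR-21b differs at 4 of 22 positions (C4U, G18A, G21U and A22C), of which C4U lies in the seed. At 5 of 21 positions miR-21c differs (A16G, G18A, U19C, U20A and G21A), none of them in the seed. The probes' own sequences were not used here, so their binding to these relatives was not tested.

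The level of an arm was the sum of the deposited total signals of its probes, in background-subtracted intensity units without scaling between arrays. The signal of miR-21-5p was 5502 in the IL-6 culture, against 6488 in GM-CSF only. It ranked 6 by signal among the 308 names detected with IL-6 and 6 among the 301 detected without it. The arm held 4.04% of all detected signal in the IL-6 culture and 4.63% in GM-CSF only. All of its 40 spots were well above background on each array, and 0 spots were saturated.

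The passenger arm was faint. The signal of miR-21-3p was 22.2 in the IL-6 culture, against 20.8 in GM-CSF only. It ranked 198 among the 308 names detected with IL-6 and 200 among the 301 detected without it. Its share of detected signal was 0.0163% in the IL-6 culture and 0.0148% in GM-CSF only. Of its 40 spots, 20 were well above background on each array.

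The signal of miR-21-5p was 248 ± 6.82 times that of miR-21-3p in the IL-6 culture and 312 ± 7.58 times in GM-CSF only (errors over replicate spots). From the errors that the scanner software deposited for each probe, the errors of these ratios were larger, 32.6 and 41.7. Signals of different probes also depend on how well each probe binds, and their totals on the number of spots. These are therefore ratios of signal and not of molecules. In the deposited gene totals, which for miR-21-3p exceed its own detected probes by the total of miR-20b-5p, the ratios were 21.3 and 23.8. After normexp background correction with an offset of 50, which adds a constant to every spot, they were 73.1 and 86.2.

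Change with IL-6 was expressed as the log2 ratio of the IL-6 culture over the culture with GM-CSF only. The signals of each array were scaled to the 75th percentile of the 292 names (160 with IL-6 and 182 without). The median log2 ratio of these names was then 0.12, and values are given relative to it. Errors were taken in 2 ways: the standard error over replicate spots within the arrays, and the error that the scanner software deposited for each probe. The deposited error includes a fixed 10% of the signal per probe and is the larger one. Neither includes variation between cultures.

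The abundant arm was slightly lower with IL-6 than the median name, and the faint arm slightly higher. The relative log2 ratio of miR-21-5p was -0.17, with a spot error of 0.02 and a deposited error of 0.17. This is 0.887-fold, or a difference of -11.3%. The relative log2 ratio of miR-21-3p was 0.16, with a spot error of 0.05 and a deposited error of 0.21, or 1.12-fold. Against the spot error the values were 10.3 and 3.17 times as large, and against the deposited error 1.02 and 0.759 times. Neither arm is therefore clearly separated from the median by the scanner software's own error. Of all 292 names, 21 (7.19%) lay further from the median than 2 deposited errors and 181 (62%) further than 2 spot errors. Both arms of miR-21 were among the 181 and neither among the 21. Neither arm reached 1.5-fold in either direction, and most names did not either. Of the 292 names, 10 (3.42%) were higher with IL-6 by that factor and 0 (0%) lower. At 2-fold the counts over all names were 3 higher (1.03%) and 0 lower.

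Uniform scalings cannot move the relative values, only the log2 ratios before the median is subtracted. That ratio of miR-21-5p was below 0 on each uniform scaling but not under quantile normalization. Before the median of all names was subtracted, the log2 ratio of miR-21-5p was -0.05 on the scale of the 75th percentile and -0.24 unscaled. That of miR-21-3p was 0.28 and 0.10 on the same scales. The lowest values were -0.32 for miR-21-5p and 0.01 for miR-21-3p, both after scaling by the 75th percentile over all names, where the median name stood at -0.15. Quantile normalization set miR-21-5p to 0, because it held the same rank on both arrays, and relative to the median name it was then 0.03.

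Ranked from high to low, miR-21-5p stood at 266 of the 292 relative ratios, with 26 names lower. At rank 69, miR-21-3p had 68 names higher. The middle 50% of names lay between -0.09 and 0.16, so that miR-21-5p lay below that range and miR-21-3p just past its upper edge.

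**Figure D1:**
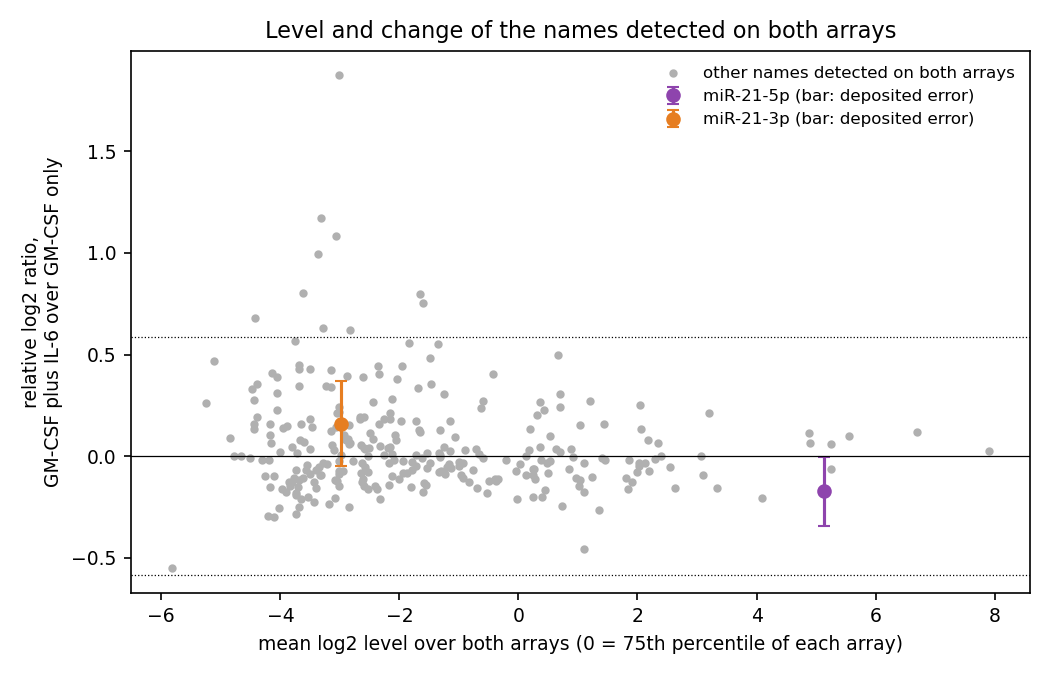
Relative log2 ratio (IL-6 culture over culture with GM-CSF only, vertical) against mean log2 level over both arrays (horizontal, 0 is each array's 75th percentile) for the 292 names detected on both, with 1.5-fold marked by dotted lines. The bright miR-21-5p lies at -0.17 and the faint miR-21-3p at 0.16, and the deposited error bar of miR-21-3p crosses 0 while that of miR-21-5p ends just short of it.

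Among the 10 names brightest in the culture with GM-CSF only, 6 lay above the median of all names and 4 below it. Their values ran from -0.21 to 0.12. Only miR-1224-5p (-0.21) was lower than miR-21-5p in that set of 10, which was described after its values had been seen. In the IL-6 culture miR-669n (0.21) ranked 10 in place of miR-2145_v16.0 (-0.16). The level of miR-21-5p was most like that of miR-223-3p, a granulocyte miRNA, by distance over the scaled log2 levels of the 2 arrays (0.19). The signal of miR-223-3p was 6239 in the IL-6 culture and 6807 in GM-CSF only, a relative log2 ratio of -0.06. Next were miR-720 at a distance of 0.23 and miR-1187 at 0.37. The name most like miR-21-3p was miR-103-1-5p at a distance of 0.0069, with signals of 22.2 and 20.7. It was followed by miR-3098-3p at 0.06 and miR-465b-5p at 0.07. With 2 arrays these distances say only that the names had like levels.

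The 5p arm was read by 2 probes of 20 spots each, and they gave nearly the same ratio. Probe A_54_P1307 carried 81.5% of the arm's signal on each array. Its spots ran from 10922 to 12622 with a median of 11820 in the IL-6 culture, against 12189 to 14432 with a median of 13794 in GM-CSF only. The 2 sets overlapped, with 14 of the 20 IL-6 spots below every spot of the other array. Probe A_54_P1308 had a median of 2697 over 19 spots in the IL-6 culture, against 3111 over 18 spots in GM-CSF only, after spots flagged as outliers were left out. All 19 of its unflagged IL-6 spots lay below all of the other array's 18. With flagged spots included the sets overlapped, from 2188 to 2762 with IL-6 and from 2019 to 3240 without. These are unscaled intensities, on which the median name was also lower with IL-6 by a log2 ratio of -0.06. The share of all probes whose spots separate in this way was not counted. Of all names, 62% lay further from the median than 2 spot errors. The relative log2 ratios of the probes were -0.17 ± 0.02 for A_54_P1307 and -0.17 ± 0.01 for A_54_P1308 (spot error).

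The 3p arm was read by 4 probes of 10 spots each, and 2 of them carried most of the signal. Probe A_54_P3447 held 57.4% of the arm's signal with IL-6 and 56.7% without it. Its spots ran from 58.1 to 74.7 with a median of 70.3 in the IL-6 culture, against 55.0 to 69.2 with a median of 60.0 in GM-CSF only. The sets overlapped, and 6 of 10 IL-6 spots exceeded every spot of the other array. How many other probes separate to this extent was not counted. Probe A_54_P3446 had a median of 41.2 over 9 spots in the IL-6 culture, against 37.7 over 10 spots in GM-CSF only, again with overlap. Relative log2 ratios were 0.18 ± 0.06 for A_54_P3447 and 0.22 ± 0.08 for A_54_P3446 (spot error).

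The other probes of miR-21-3p were faint, with 0 spots well above background on either array. Of the 10 spots of A_54_P3445, 9 with IL-6 and 10 without were significantly above background by the scanner software's flag, and of those of A_54_P3444, 1 and 2. The total of A_54_P3445 was 1.15 in the IL-6 culture and 1.48 in GM-CSF only, with deposited errors of 0.839 and 0.844. That of A_54_P3444 was 0.283 in the IL-6 culture and 0.314 in GM-CSF only, below its errors of 0.833 and 0.832. Their relative log2 ratios, -0.29 ± 0.21 and -0.09 ± 1.31, had the opposite sign to those of the brighter probes. On each of these probes 3 of 10 spots were flagged as outliers with IL-6 and 0 without it. The mean log2 signal over unflagged spots gave 0.36 for the arm in place of 0.16, but it set 33 spots with IL-6 against 40 without, and 6 of the 7 missing spots belonged to these faint probes. With all 40 spots on each array it gave 0.059, and averaged within each probe first, 0.047. Both of these settings were added after seeing the data.

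**Figure D2:**
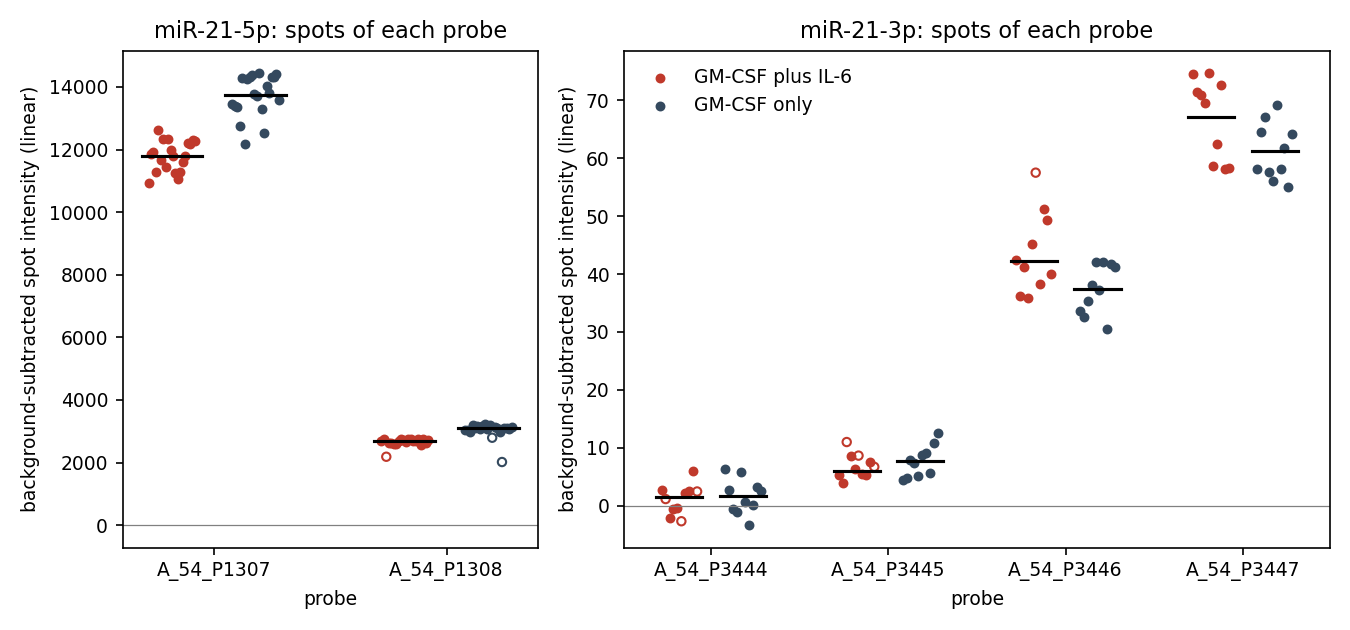
Background-subtracted intensity of each spot (linear axis) for the 2 probes of miR-21-5p and the 4 probes of miR-21-3p, with GM-CSF plus IL-6 left of GM-CSF only. Black bars are means over spots without outlier flags and open circles are flagged spots. Both 5p probes are lower with IL-6, the 2 brighter 3p probes slightly higher, and A_54_P3444 scatters around 0.

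The authors' deposited table gives miR-21-5p as 6.15 in the IL-6 culture and 6.39 in GM-CSF only on a log2 scale, a difference of -0.24. In the authors' deposited table miR-21-3p stands at -1.90 and -2.03, a difference of 0.13. Both arms match the log2 sum of the probes whose total exceeds 3 times the deposited error, minus 6.28 on each array. For miR-21-3p that sum holds only the 2 brighter probes, 20.8 in the IL-6 culture and 19.0 in GM-CSF only. The origin of the constant is unknown.

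Scaling of a whole array cancels in the difference between the arms. The log2 ratio of miR-21-5p minus that of miR-21-3p was -0.33, with a spot error of 0.05 and a deposited error of 0.27. The difference was 1.23 times the deposited error. It was -0.22 with the mean log2 signal over all 40 spots and -0.05 after quantile normalization. With unflagged spots alone it was -0.55, on the unequal sets of 3p spots given above. With A_54_P3445 as the sole 3p probe it was 0.12, the opposite sign.

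To place this value, the same difference was taken for every hairpin whose -5p and -3p names were both detected on both arrays. Of 381 such pairs of names on the array, 27 qualified, miR-21 and 26 others. By size of the difference miR-21 ranked 7 of 27, with 6 other hairpins larger and 20 smaller. The median size among the others was 0.17. The largest were miR-466h at -1.61, miR-877 at -1.04 and miR-101a at 0.55. Next to miR-21 in the order of signed differences stood miR-483 at -0.54 and miR-30b at -0.26. The arms lay on opposite sides of the median of all names in 14 of the 26 other hairpins, as they did for miR-21.

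The imbalance of the arms was largest for miR-21 among the 27 hairpins with both arms detected. Hairpins with an undetected arm were left out by that rule, so larger imbalances among them were not examined. In GM-CSF only, 0 of the 26 other hairpins had a larger ratio of signal between their arms in either direction. Behind miR-21 came let-7d, whose 5p arm had 36.6 times the signal of its 3p arm in that culture. The 5p arm was the brighter one in 15 of the 26 others. The brighter arm was the one with the lower log2 ratio in 15 of the 26, with a median of -0.03 for brighter minus fainter arm, against -0.33 for miR-21.

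**Figure D3:**
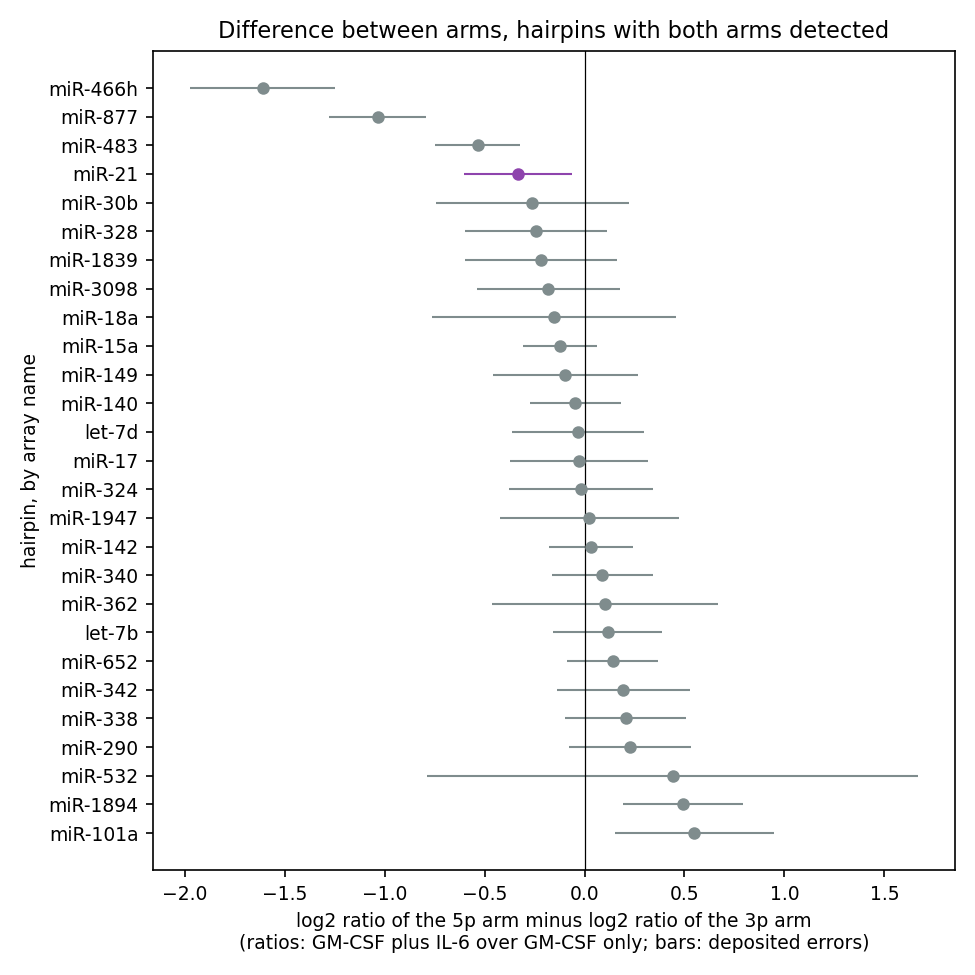
Log2 ratio of the 5p arm minus that of the 3p arm (horizontal; each ratio is the IL-6 culture over the culture with GM-CSF only) for 27 hairpins, each on a row under its array name, with deposited errors as bars. The value of miR-21, in purple, is -0.33, and 6 other hairpins lie further from 0.

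Other miRNAs tied to STAT3 showed no common rise with IL-6 relative to the median name. The list held 15 names, among them miR-21-5p and miR-21-3p, and counted miRNAs reported to be induced by STAT3 or to target Stat3 or Il6. All 15 had an array name. Detection was met on each array by 13 of them and on neither by miR-124-3p and miR-125b-5p. None of the 13 reached 1.5-fold in either direction, beside 3.42% of all names at least 1.5-fold higher. Apart from miR-21, 2 of the 11 detected members lay above the median of all names and 9 below it (50% of all names lie below it by definition). Their median relative log2 ratio was -0.03, where all names have 0.

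Of the STAT3-induced names, miR-181b-5p had signals of 34.0 in the IL-6 culture and 34.2 in GM-CSF only, a relative log2 ratio of 0.05 with a deposited error of 0.21. The inflammatory miR-155-5p was the lowest of the list at -0.25 with a deposited error of 0.17, and miR-146b-5p followed miR-21-5p at -0.12. Listed members of the proliferation-linked miR-17~92 cluster lay between -0.06 (miR-18a-5p) and 0.0011 (miR-19b-3p). Outside the list, miR-17-3p stood at 0.0038 and miR-18a-3p at 0.09. The 4 detected names that target Stat3 or Il6 in reported work lay between -0.06 (miR-223-3p) and -0.02 (miR-20a-5p), with let-7a-5p at -0.04.

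**Figure D4:**
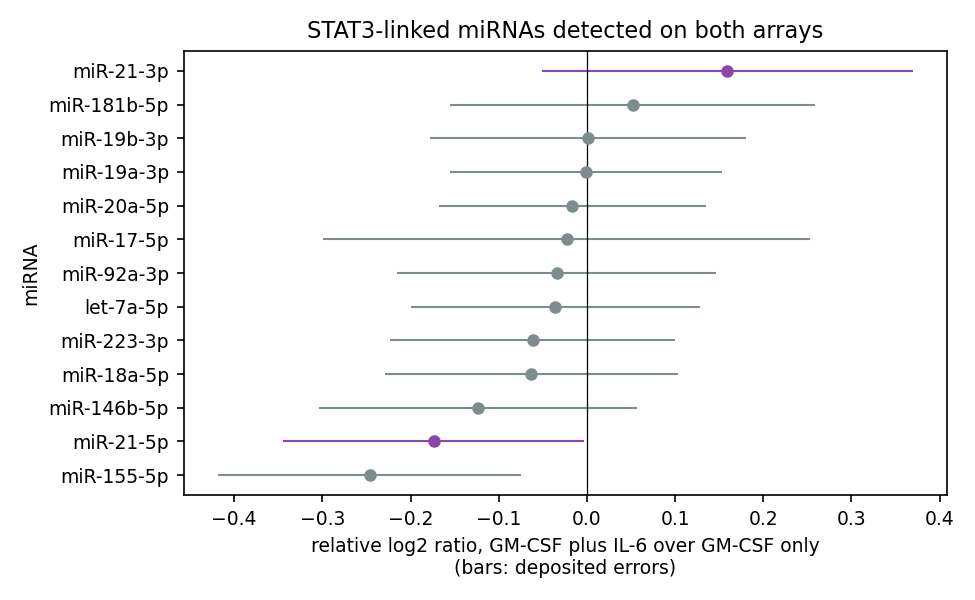
Relative log2 ratio (IL-6 culture over culture with GM-CSF only, horizontal) of the 13 STAT3-linked miRNAs detected on both arrays, with deposited errors as bars. The arms of miR-21, in purple, stand near opposite ends at 0.16 and -0.17, and only miR-155-5p is lower than miR-21-5p.

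The names listed as myeloid, miR-142-3p, miR-142-5p and miR-223-3p, all passed detection on each array. Whether they set myeloid cells apart from other blood cells was not tested. Of 15 marker names of lymphoid, erythroid, stromal, epithelial, muscle, liver and neural cells, 14 were matched on the array by exact name. Detection was met on each array by 5 of these and on neither by 9. The signals of the 5 summed to 101 in the IL-6 culture and 112 in GM-CSF only, the brightest being the lymphoid miR-150-5p at 54.2 and 62.6. The others were epithelial miR-200c-3p (12.4 with IL-6 and 15.0 without) and miR-141-3p (8.51 and 7.80). Liver miR-122-5p (11.5 and 9.15) and erythroid miR-451 (8.10 and 10.4) were also detected. Erythroid miR-144-3p, epithelial miR-205-5p and muscle miR-133a-3p were detected on neither array. All 4 stromal names and both neural names of the list went undetected, with signals of at most 2.65 with IL-6 and 2.95 without. This rests on the arms chosen for the list: the other arm of a stromal marker, miR-214-5p, was detected at 41.3 with IL-6 and 40.9 without, and the muscle miR-206-3p, also outside the list, at 67.8 and 55.5. The part of other cell types in the miR-21 values was not tested. Both arrays lay on 1 slide and in 1 scan, and their number limits the precision.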

How the data were processed

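Per the file headers, both 1-colour scanner files were written by Agilent Feature Extraction 10.7.1.1. The deposited intensity values are background-subtracted and spatially detrended, with no scaling between arrays. The value table that the authors deposited gives each miRNA name on a log2 scale, with column medians of -9.60 and -9.60, which is a floor for undetected names. Its scale and direction are known from the match to the probe sums, and the origin of its constant is unknown.

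The level of a name was the sum of its deposited probe totals. Each probe total equalled a constant of its array times its number of spots times the mean of its spots without outlier flags. The number of spots included flagged ones, and a probe with more spots weighs more in the sum. Spot errors were scaled by the same factor. Detection followed the scanner software's flag. Ratios were scaled by the 75th percentile over the names detected on both arrays and given relative to their median. With 1 array per culture no test was run, and fold thresholds of 1.5 and 2 took its place.

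The members and lists were chosen with earlier results of these data known. The named miRNAs were both arms, names sharing a seed with them, the STAT3-linked list, the 3 names nearest in level to each arm, the 3 other hairpins with the largest arm difference and the 2 next to miR-21. The 10 names brightest in the culture with GM-CSF only were added after seeing the data. Sequences came from RefSeq (GRCm38.p6). The alternatives were other scalings, quantile and loess normalization (span 0.7), spot-level summaries (floor 1), normexp (offset 50), the authors' table, the gene totals, other sets of names for the median, subsets of spots and single probes. Values on the array scales, sums of probes over 3 times their error, and mean log2 signals over all spots or within each probe first, were added after seeing the data. Normexp was run in limma 3.58.1 under R 4.3.3. All else was computed in Python 3.11.15 (statsmodels 0.14.6, numpy 2.4.6, pandas 2.3.3) and drawn with matplotlib 3.10.9. Simulated spots with known changes were used to test the functions.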

Additional observations from a re-analysis of the deposited data

How the results depend on the processing

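Uniform scalings cancel in the relative log2 ratios and in their difference, so they could not move these values. Loess, the authors' table, mouse names alone, odd or even spots and the inclusion of outlier spots moved them by no more than 1 spot error. Quantile normalization gave 0.031 for miR-21-5p (opposite sign), 0.085 for miR-21-3p and -0.054 for the difference. The mean log2 signal over unflagged spots gave -0.19, 0.36 and -0.55, with 33 spots of miR-21-3p with IL-6 against 40 without. Over all spots miR-21-3p stood at 0.059 and the difference at -0.22, and averaged within each probe first at 0.047 and -0.21. Normexp gave -0.22 for miR-21-5p and 0.090 for miR-21-3p. Its shares of detected signal were 3.64% with IL-6 and 4.18% without for miR-21-5p, and 0.0498% and 0.0485% for miR-21-3p. Its ratios of signal between the arms were 73.1 and 86.2. The deposited gene total gave -0.15, 0.010 and -0.16, shares of 3.52% and 4.18% for miR-21-5p, and shares of 0.166% and 0.175% for miR-21-3p, which turns the order of the cultures. Its ratios between the arms were 21.3 and 23.8. Probes over 3 times their error alone gave ratios of 265 and 341 and shares of 0.0153% and 0.0136% for miR-21-3p. A median taken over names with all spots well above background, or over names at or above the median level, gave -0.16 and -0.15 for miR-21-5p. With a sole 3p probe, miR-21-3p stood at -0.086 (A_54_P3444), -0.29 (A_54_P3445) and 0.22 (A_54_P3446), and the difference at -0.087, 0.12 and -0.39. The first 2 of these probes were faint. No paired analysis was possible because each culture has 1 array and no result comes from a test.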

Other observations

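The deposited gene total of miR-21-3p was 259 in the IL-6 culture and 272 in GM-CSF only, which is 11.6 and 13.1 times the sum of its own probe totals. After the probes over 3 times their error were subtracted, 238 and 253 remained. These equal, within 7.11e-05%, the gene totals of miR-20b-5p, the detected name that precedes miR-21-3p in name order on both arrays. Taken as deposited, the gene total of miR-21-3p had an unscaled log2 ratio of -0.07, where the probe sum gave 0.10. Of the 308 and 301 detected names, 75 and 71 had a gene total more than 0.5% above their own detected probes. The gene total of miR-21-5p equalled its probe sum.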
